A study of Mus musculus with 17 samples.

Results

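Transcript levels were compared between preCFUE, an early erythroid progenitor, and preGM, a progenitor directed to granulocytes and monocytes, both sorted from mouse bone marrow. The comparison used 6 of the 17 arrays of the study, 3 for each of the 2 fractions, and covered 18193 genes with 1 probe set each. Arrays were assigned by the gate in their titles. Both fractions were negative for lineage markers, Sca1 and Itga2b, positive for Kit and low for the Fc gamma receptors. preCFUE cells were also positive for Slamf1 and high for Eng, whereas preGM cells lacked Slamf1 and were low for Eng. The cells came from adult mice of 10 to 14 weeks, and strain, genotype and sex are not given in the labels used here. Another 3 fractions (preMegE, 5 arrays; MkP, 3 arrays; CLP, 3 arrays) entered the same fit, and preMegE (Slamf1+ and Eng low, the shared precursor of red cells and megakaryocytes) is given beside the 2 where it helps. Whether the 3 arrays of a gate are separate animals or sorts is not stated, so p-values cover only the spread from array to array, possibly technical. The free-text description, the same on every array, names a stem cell gate that conflicts with the titles, and it was not used.

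Red cells, granulocytes and monocytes descend from shared Kit-positive progenitors. Gata1 and Klf1 are transcription factors that switch on the genes of hemoglobin synthesis, the red cell membrane and iron uptake, while Spi1, Cebpa, Irf8 and Gfi1 direct the granulocyte and monocyte programme of granule enzymes and growth factor receptors. preCFUE cells lie just before the stage that forms erythroid colonies in response to erythropoietin, and preGM cells lie before the first committed granulocyte and monocyte progenitors.

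Levels are linear RMA intensities, and fold changes are preCFUE over preGM on the log2(intensity + 16) scale, ± their standard error (SE). That scale understates the change of dim genes. Adjusted p-values are from limma with Benjamini-Hochberg adjustment over all genes, and a gene rose or fell where it was under 0.05. With 3 arrays against 3, an exact permutation test of 1 gene cannot go below 0.1, so only the limma values are given. In such bulk samples, fewer cells of a type and less RNA per cell cannot be told apart.

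The median intensity of an array ran from 16 to 19.1 over the 17 arrays. Over all genes the preCFUE arrays correlated with each other at 0.985 to 0.990. Among the preGM arrays, replicates 1 and 2 correlated at 0.996, the closest pair within any fraction, while replicate 3 correlated with them at 0.964 and 0.968. Each preCFUE array correlated with each preGM array at 0.897 to 0.933. The log2 ratio of 3′ to 5′ Gapdh control probe sets, a sign of RNA shortening, was 3.49 ± 0.62 (SD, n = 3) in preCFUE and 3.27 ± 0.62 (SD, n = 3) in preGM. In replicates 1, 2 and 3 it was 2.85, 3.53 and 4.09 in preCFUE and 2.72, 3.15 and 3.94 in preGM. preGM replicate 3 thus had the highest ratio of its fraction, and its part in the differences of that array was not tested.

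The genes of the sort followed the gate only in part. Slamf1 had intensities of 19.0, 19.7 and 22.6 in the 3 preCFUE arrays and 10.7, 8.83 and 12.3 in the 3 preGM arrays. The fractions did not overlap and Slamf1 rose (0.45 ± 0.10, adjusted p = 0.00778 by limma), at intensities near 16, under which 47.3% of all values lay. The call was lost with 64 added before the logarithm (adjusted p = 0.087) or with the mean over its probe sets (0.107). Eng, a co-receptor of the TGF-beta family and the other gene that separates the gates, was at 200.4, 226 and 286 in preCFUE and 170.3, 158 and 239 in preGM, and the fractions overlapped. It did not pass the test (0.31 ± 0.15, adjusted p = 0.249 by limma), but did without preGM replicate 3 (0.044). Kit, positive in both gates, was at 540.1 ± 41.3 in preCFUE and 476 ± 30.6 in preGM (SD, n = 3) and did not pass (adjusted p = 0.863). Itga2b (-0.84 ± 0.18), Fcgr3 (-0.67 ± 0.10) and Fcgr2b (-0.77 ± 0.15) fell although both gates treated them alike, the last with an adjusted p of 0.00267, which became 0.0503 in a fit of only the 6 arrays. Ly6a, which encodes Sca1, was not measured here.

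Of the 18193 genes, 2560 passed the test, which is 14.1%. In preCFUE 1054 genes rose (5.79%) and 1506 fell (8.28%), so that 41.2% of the changed genes were higher in the erythroid fraction. With each array centred on its median instead, which moved the median of all genes from 0.027 to 0.099, 1399 rose and 1306 fell, and 51.7% were higher. The falls included more large changes: 444 genes rose at least 2-fold (2.44%) against 882 that fell as much (4.85%). At least 4-fold there were 100 rises and 291 falls, and at least 16-fold 13 rises and 47 falls. The 3 arrays of each fraction did not overlap for 2539 of the 2560 changed genes and for 30.5% of all genes. The first count follows largely from the test, which used the same arrays, and is no separate support. Leaving out 1 of the 6 arrays gave between 1979 and 2230 changed genes.

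**Figure D1:**
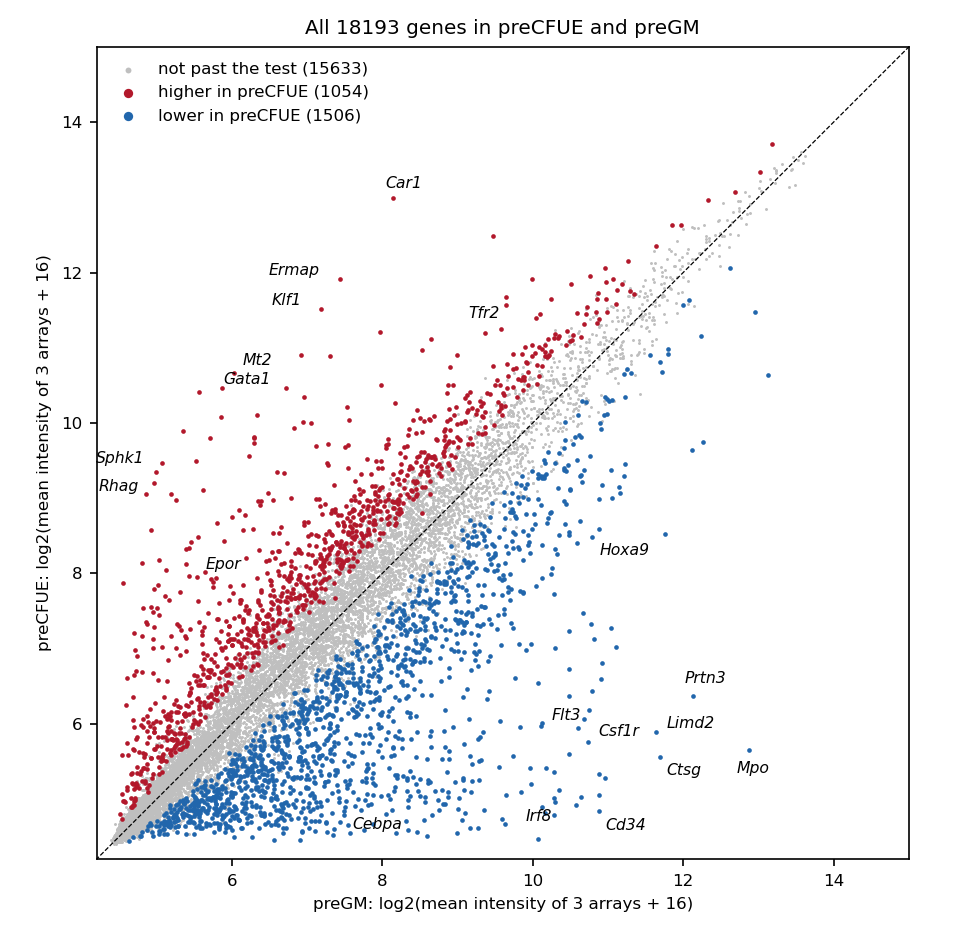
Mean RMA intensity of each of the 18193 genes in 3 preGM arrays (x axis) and 3 preCFUE arrays (y axis), both as log2(mean + 16). Red points are the 1054 genes that rose in preCFUE, blue points the 1506 that fell and grey points those that did not pass the test. The genes of granulocytes and monocytes at the lower right, led by Mpo, lie farther from the dashed line of equal level than the erythroid genes at the upper left, led by Car1.

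The largest rise was that of Car1, a carbonic anhydrase of early erythroid cells. Its intensity was 8137, 8463 and 7728 in preCFUE and 282, 319 and 201 in preGM, and the log2 fold change was 4.86 ± 0.33 (adjusted p = 7.65e-08 by limma). Every preCFUE array was far above every preGM array. Klf1 was at 3065, 2678 and 3009 in preCFUE against 127, 148 and 114 in preGM (4.33 ± 0.23, adjusted p = 7.56e-09). Ermap, an erythroid membrane protein that carries the Scianna blood group, was at 3905, 4563 and 3088 against 94.1, 120.1 and 256 (4.58 ± 0.37), with preGM replicate 3 the highest of its fraction. Rhag, the membrane partner of the Rh blood group protein, was at 595, 591 and 724 against 14.2, 11.1 and 22.4 (4.36 ± 0.19). The other 8 of the 12 largest rises were Myh10, a nonmuscle myosin heavy chain (4.83), the metallothionein Mt2 (4.64), the carboxylesterase Ces2g (4.59), the retinal-oxidizing enzyme Aldh1a1 (4.54), the sphingosine kinase Sphk1 (4.41), the water channel Aqp1 (4.23), the amino acid transporter Slc38a5 (4.22) and the collagen gene Col5a1 (4.2). All 12 had adjusted p-values of at most 6.35e-07 by limma.

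The largest fall was that of Mpo, the myeloperoxidase of granulocyte primary granules. Mpo was at 16.3, 19.8 and 66.6 in preCFUE and 7013, 6929 and 8567 in preGM (-7.35 ± 0.46, adjusted p = 3.9e-08 by limma). The preGM arrays were far above the highest preCFUE array, which was replicate 3. The granule proteases followed: Ctsg was at 27.7, 24.1 and 42.1 in preCFUE against 3927, 3671 and 2293 in preGM (-6.11 ± 0.28), and Prtn3 at 58.9, 41.3 and 99.8 against 4985, 5042 and 3407 (-5.80 ± 0.30). Cd34, a surface sialomucin of early progenitors, was at 12.5, 12 and 13.5 in preCFUE and 2153, 2074 and 1406 in preGM (-6.02 ± 0.30, adjusted p = 3.58e-09). It did not enter the gate that separated these 2 fractions. The others among the 12 largest falls were Limd2, a LIM domain protein (-5.78), the lymphoid DNA polymerase Dntt (-5.77), Irf8 (-5.64), Bex6 (-5.55), the surface receptor Cd93 (-5.54), the chemokine Ccl9 (-5.53), BC035044 (-5.49) and the coagulation factor subunit F13a1 (-5.47). preGM replicate 3 was the lowest of its fraction for Ctsg, Prtn3, Cd34, Dntt, Irf8, Bex6, Ccl9, BC035044 and F13a1 and the highest for Mpo and Cd93.

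**Figure D2:**
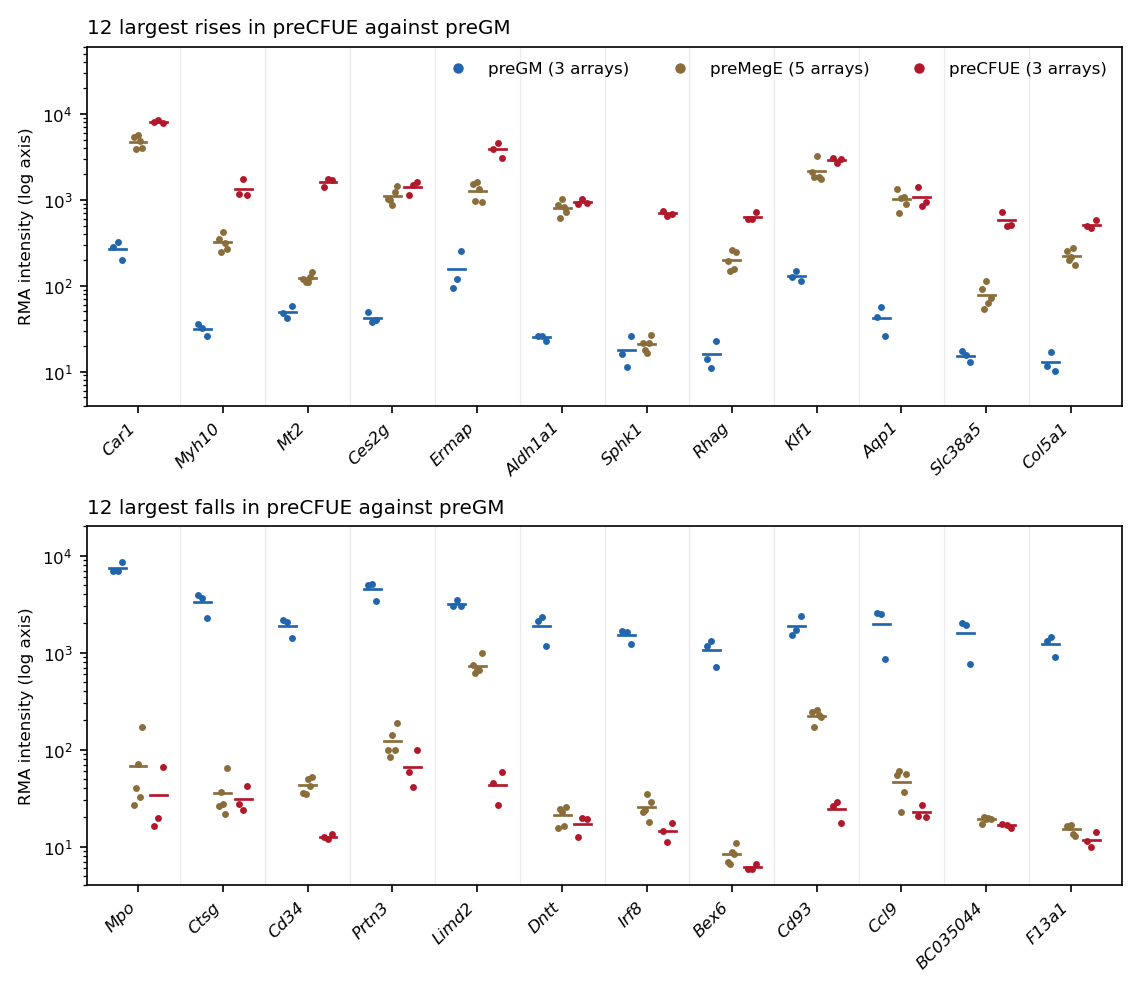
RMA intensity on a log axis of the 12 genes with the largest rise (top) and the 12 with the largest fall (bottom), 1 probe set per gene. Each point is 1 array and each bar the mean of 3 preGM (blue), 5 preMegE (brown) or 3 preCFUE (red) arrays. Klf1, Aqp1, Ces2g and Aldh1a1 in preMegE lie near their level in preCFUE, while the preMegE arrays overlap preGM for Sphk1 and lie between the other fractions for Mt2.

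Within these 24 genes the level in preMegE differed from gene to gene. Klf1 averaged 2142 ± 611 in preMegE (SD, n = 5), Aqp1 1015 ± 240.3 and Ces2g 1114 ± 227. Aldh1a1 averaged 807 ± 154 there, against 936 ± 73.0 in preCFUE and 24.9 ± 1.95 in preGM (SD, n = 3). For these 4 genes every preMegE array was far above the preGM arrays. Sphk1 averaged 20.7 ± 4.05 in preMegE, where its 5 arrays spanned 16.3 to 26.7 and overlapped preGM at 17.7 ± 7.27, against 692 ± 48.5 in preCFUE. Mt2 averaged 123 ± 14.4 in preMegE, between 49.3 ± 7.52 in preGM and 1609 ± 195 in preCFUE. Among the falls, Limd2 (735 ± 151) and Cd93 (223 ± 32.0) were at intermediate levels in preMegE. Cd34 averaged 42.7 ± 7.84 there, above the 12.7 ± 0.79 of preCFUE without overlap, and F13a1 15.1 ± 1.75, against 11.7 ± 2.11 in preCFUE. The preMegE values are a description, with no test against either fraction.

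The promoters of 4 of the genes that rose and 3 of those that fell are shown because factors among the changed genes bind known motifs: GATA factors bind AGATAA and TGATAA, Klf1 binds CACCC and the C/EBP factors bind TTGCNNNAA. Sequences are the 250 bases before the start site, 5′ to 3′ on the strand of the gene, from RefSeq on build GRCm38.p6. Capitals mark these motifs on either strand (TTATCA is TGATAA, and GGGTG is CACCC, on the other strand), and in the Ermap window the 2 motifs lie 1 base apart. The windows are chr8:84901732-84901981 (plus strand) for Klf1, chrX:7967911-7968160 (minus strand) for Gata1, chr4:119189996-119190245 (minus strand) for Ermap, chr17:40810899-40811148 (plus strand) for Rhag, chr11:87793534-87793783 (plus strand) for Mpo, chr14:56102575-56102824 (minus strand) for Ctsg and chr10:79879417-79879666 (plus strand) for Prtn3.
Klf1: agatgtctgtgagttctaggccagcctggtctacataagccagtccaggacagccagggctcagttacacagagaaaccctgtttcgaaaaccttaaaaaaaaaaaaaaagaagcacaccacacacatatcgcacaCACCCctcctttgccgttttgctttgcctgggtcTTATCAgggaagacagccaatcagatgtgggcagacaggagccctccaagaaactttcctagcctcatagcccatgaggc
Gata1: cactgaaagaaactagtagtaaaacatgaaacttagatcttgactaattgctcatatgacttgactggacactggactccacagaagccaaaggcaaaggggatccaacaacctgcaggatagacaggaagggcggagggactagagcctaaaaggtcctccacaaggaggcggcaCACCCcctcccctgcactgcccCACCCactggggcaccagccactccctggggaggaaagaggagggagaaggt
Ermap: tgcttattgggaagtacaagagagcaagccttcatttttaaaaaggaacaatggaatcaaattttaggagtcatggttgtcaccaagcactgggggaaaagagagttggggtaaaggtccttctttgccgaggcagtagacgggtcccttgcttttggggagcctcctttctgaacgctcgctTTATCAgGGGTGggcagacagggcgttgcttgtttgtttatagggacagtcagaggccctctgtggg
Rhag: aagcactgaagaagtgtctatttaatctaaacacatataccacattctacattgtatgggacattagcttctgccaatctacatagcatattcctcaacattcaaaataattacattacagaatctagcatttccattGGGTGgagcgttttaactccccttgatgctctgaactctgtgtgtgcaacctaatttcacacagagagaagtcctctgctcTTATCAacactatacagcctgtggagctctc
Mpo: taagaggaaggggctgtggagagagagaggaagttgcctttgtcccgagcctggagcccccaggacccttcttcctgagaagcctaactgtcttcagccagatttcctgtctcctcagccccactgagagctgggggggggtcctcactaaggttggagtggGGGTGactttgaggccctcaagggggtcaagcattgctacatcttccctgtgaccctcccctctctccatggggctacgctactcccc
Ctsg: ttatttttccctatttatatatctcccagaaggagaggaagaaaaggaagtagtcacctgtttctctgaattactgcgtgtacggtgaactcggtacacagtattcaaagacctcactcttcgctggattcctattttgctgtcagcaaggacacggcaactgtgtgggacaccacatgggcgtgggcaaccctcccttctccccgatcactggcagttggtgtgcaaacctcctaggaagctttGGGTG
Prtn3: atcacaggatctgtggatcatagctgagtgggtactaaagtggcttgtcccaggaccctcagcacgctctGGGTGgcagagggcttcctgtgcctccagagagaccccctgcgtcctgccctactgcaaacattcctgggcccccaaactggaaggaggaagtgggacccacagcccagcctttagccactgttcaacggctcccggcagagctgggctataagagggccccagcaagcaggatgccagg

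Klf1, Ermap and Rhag each held 1 TGATAA and 1 CACCC, and Gata1 held 2 CACCC and neither AGATAA nor TGATAA. Mpo, Ctsg and Prtn3 each held 1 CACCC, and none of the other 3 motifs was in these windows. Windows were found for 14452 of the 18193 genes tested. AGATAA or TGATAA lay in 16.6% of all 32851 windows, 11.8% of windows of tested genes, 11.7% of those of genes that rose and 10.4% of those of genes that fell. CACCC lay in 52% of all windows, 57.4% of windows of tested genes, 58.1% of those of genes that rose and 61.6% of those of genes that fell. TTGCNNNAA lay in 8.29%, 6.96%, 6.2% and 6.47% of the same 4 sets. The shares among genes that rose or fell were thus close to that of all tested genes, and a motif in a window describes its letters, not a bound site.

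Erythroid transcription regulators included large rises and genes that did not pass the test. Of 22 measured, 9 rose, 1 fell and 12 did not pass (45.5% past the test against 14.1% of all genes). Their median log2 fold change was 0.50 against 0.027 over all genes. Gata1 was at 1426, 1338 and 1436 in preCFUE and 91.1, 89.3 and 87.3 in preGM (3.75 ± 0.16, adjusted p = 8.25e-10 by limma), and the 3 arrays of each fraction lay close together. Gfi1b, a repressor required for red cell and platelet formation, rose from 68.0 ± 18.4 in preGM to 482 ± 6.42 in preCFUE (SD, n = 3; 2.59 ± 0.20). Zfpm1, the Gata1 cofactor (1.84 ± 0.23), Tal1, part of the same complex (1.47 ± 0.14), Nfia (2.59 ± 0.28) and Bcl11a, a repressor of fetal globin genes (1.02 ± 0.20), also rose. So did Trib2 (3.40 ± 0.23), a pseudokinase and not a transcription factor, which the list counts. Lmo2, which bridges Gata1 and Tal1, was at 2413, 1202 and 1115 in preCFUE and 2671, 3430.5 and 1706 in preGM, with overlap, and did not pass (-0.75 ± 0.41, adjusted p = 0.323). Nfe2 (-0.26 ± 0.24) and Ikzf1 (0.40 ± 0.15) did not pass either. Lyl1, a relative of Tal1, fell (-1.15 ± 0.15). With array weights, which counted 4958 changed genes in all, 15 of the list rose and 3 fell.

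Gata2, which acts before Gata1 in progenitors, was at 244, 274 and 409.9 in preCFUE and 267, 303 and 437 in preGM. These values overlapped (-0.12 ± 0.22, adjusted p = 0.894 by limma), and the sign of the difference turned without preCFUE replicate 1 (0.030) or preGM replicate 3 (0.082). In preMegE, Gata2 averaged 1751 ± 189 over 5 arrays that spanned 1524 to 1970.4, all above both fractions. Trib2 averaged 1582 ± 296 in preMegE, also above the 738 ± 85.8 of preCFUE and 58.6 ± 24.9 of preGM. By contrast Gata1 (1219 ± 168), Zfpm1 (648 ± 183) and Tal1 (569 ± 66.9) in preMegE were near their preCFUE means of 1399.8 ± 53.8, 560.2 ± 93.5 and 622 ± 71.2, and Nfia (199 ± 18.7) lay between its 627 ± 219.8 in preCFUE and 87.6 ± 10.8 in preGM.

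Of the granulocyte and monocyte regulators, 13 of 18 fell, 1 rose and 4 did not pass (77.8% past the test, median -1.17). Irf8, which directs monocyte and dendritic cell formation, was at 14.5, 11.1 and 17.6 in preCFUE and 1664, 1627 and 1234 in preGM (-5.64 ± 0.24, adjusted p = 8.25e-10 by limma). The preCFUE arrays were at the dim end of the array's values. Gfi1, a repressor needed for neutrophils, was at 8.80, 11 and 8.21 against 229, 271 and 158 (-3.19 ± 0.29). Cebpa was at 11, 15.6 and 11.5 against 158, 116 and 217 (-2.61 ± 0.17), and Spi1, which encodes PU.1, at 25.4, 27.3 and 35.0 against 103, 131 and 202 (-1.79 ± 0.22). For both, preGM replicate 3 was the highest array. Hoxa9 fell from 1745 ± 181 to 343 ± 41.3 (-2.30 ± 0.22) and Runx1 fell too (-1.66 ± 0.25), both regulators of early progenitors. Egr1, often linked to monocytes and also an immediate-early gene, was the one that rose (1.59 ± 0.39, adjusted p = 0.0115), a call lost with 64 added before the logarithm (0.052). Myb, at 4611 ± 696 in preCFUE and 3519.7 ± 96.7 in preGM, did not pass (adjusted p = 0.133).

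**Figure D3:**
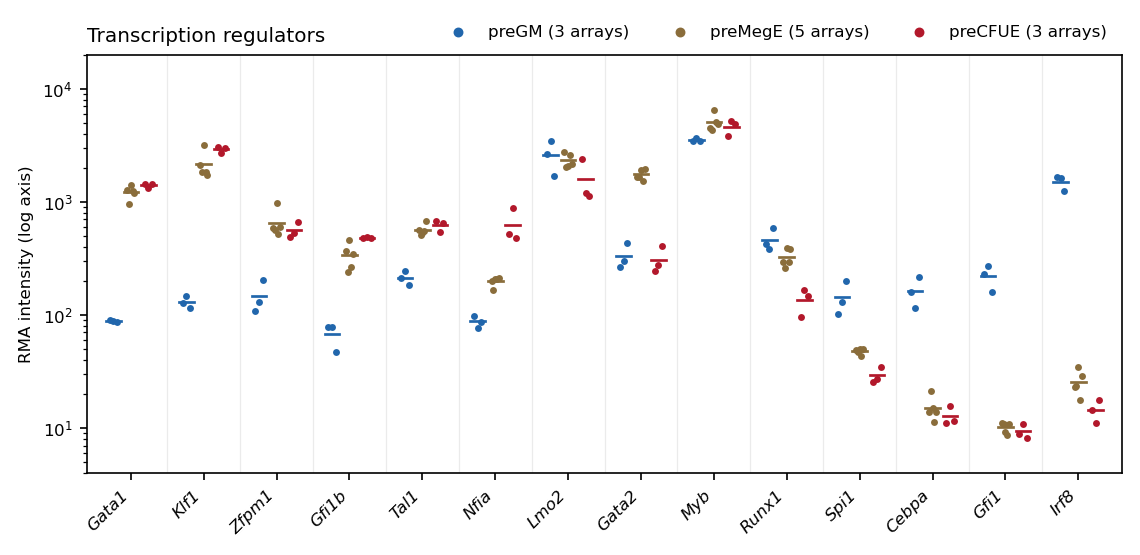
RMA intensity on a log axis of 14 transcription regulators. Points are single arrays and bars are means of 3 preGM (blue), 5 preMegE (brown) or 3 preCFUE (red) arrays. Gata1 and Klf1 were high in preMegE and preCFUE and low in preGM, Irf8, Gfi1 and Cebpa were high in preGM alone among these 3 fractions, and Gata2 was highest in preMegE.

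Of 23 genes of the red cell membrane, blood groups and membrane skeleton, 14 rose, 0 fell and 9 did not pass. Thus 60.9% passed the test, against 14.1% of all genes, and the median was 0.96. Besides Ermap, Rhag and Aqp1, the Rh blood group gene Rhd was at 539.6, 423 and 505 in preCFUE and 23.3, 25.7 and 17.5 in preGM (3.73 ± 0.20, adjusted p = 5.76e-09 by limma). Kel, the Kell blood group peptidase, was at 245, 273 and 229 against 16.6, 11.9 and 28.5 (2.95 ± 0.21). Tspan33, a tetraspanin (3.96 ± 0.24), Mfsd2b, a sphingosine 1-phosphate exporter (3.86 ± 0.15), Cldn13 (2.83 ± 0.20), the adhesion protein Icam4 (1.74 ± 0.23), the urea transporter Slc14a1 (1.71 ± 0.24) and the skeleton anchor Ank1 (2.61 ± 0.22) rose as well. The members differed in preMegE. Mfsd2b averaged 982 ± 175 there against 514 ± 44.4 in preCFUE, whereas Rhd averaged 54.2 ± 10.2 against 489 ± 59.7 and Cldn13 27.4 ± 7.70 against 215 ± 46.3.

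Slc4a1, the anion exchanger band 3, was at 10.4, 9.43 and 11 in preCFUE and 9.81, 9.39 and 10.4 in preGM, and the fractions overlapped (0.023 ± 0.077, adjusted p = 0.951 by limma). The 4 globin genes measured were dim in every array: Hba-a1 averaged 8.93 ± 0.05 in preCFUE and 8.01 ± 0.72 in preGM, the embryonic Hba-x 15.9 ± 3.22 and 12 ± 0.42, Hbb-bh1 24.4 ± 3.00 and 21.4 ± 3.54, and Hbb-y 8.67 ± 1.15 and 8.23 ± 0.25 (SD, n = 3). None of the 4 passed the test. Probe sets that match several globin genes were not named. Hbb-bs and Hbb-bt thus have no value here, and Hba-a1 rests on 1 probe set. The level of the adult globins is therefore not settled by these values. Cd24a, at 3769.9, 2192 and 2726 in preCFUE and 2437, 3138 and 1450.2 in preGM, did not pass (adjusted p = 0.708).

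Among carbonic anhydrases and red cell enzymes, 6 of 12 rose and 0 fell (50% past the test, median 1.31). Car2 was at 5444, 3040.3 and 3040.2 in preCFUE against 1103, 1217 and 692 in preGM (1.90 ± 0.38, adjusted p = 0.0028 by limma). Pklr, the pyruvate kinase of red cells, was at 350.3, 314 and 433 against 16.1, 13 and 14.2 (3.64 ± 0.16), and averaged 61.6 ± 15.5 in preMegE. Among the antioxidant enzymes that did not pass, Cat was at 1168 ± 179.8 against 845 ± 54.2 (adjusted p = 0.356), Prdx2 at 3310.2 ± 783 against 1812 ± 642 (0.194) and Sod1 at 6117 ± 463 against 4060.0 ± 624 (0.111). In each of these 3 the arrays of the fractions did not overlap, as in 30.5% of all genes, and preCFUE was the higher. Gpx1 was at 3226, 2686 and 4236 in preCFUE and 4616, 4007 and 3065 in preGM, with overlap (-0.21). Without CLP replicate 2 in the fit, Prdx2 (0.025) and Sod1 (0.011) passed.

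Of the 8 enzymes of heme synthesis measured 4 rose, and neither form of the first enzyme did. Of all 17 genes of heme synthesis and breakdown, 7 rose, 1 fell and 9 did not pass (47.1% past the test, median 0.90). Alas2, the erythroid form of the first enzyme, was at 10.4, 13.5 and 14.4 in preCFUE and 10.8, 10.6 and 12.8 in preGM, with overlap and at a dim level (0.068 ± 0.11, adjusted p = 0.867 by limma). Alas1, the form used by other cells, was at 205, 139 and 146 in preCFUE and 646, 555 and 436 in preGM and fell (-1.65 ± 0.42, adjusted p = 0.0143), although without preCFUE replicate 2, preCFUE replicate 3 or preGM replicate 1 its adjusted p was 0.0535 to 0.0557. Alad, the next enzyme, was at 2258, 1509 and 1919 against 540.1, 563 and 373 (1.91 ± 0.27). Urod (1.86 ± 0.22), Cpox (1.74 ± 0.26) and Fech, which inserts the iron (1.61 ± 0.19), rose too. Uros (0.65 ± 0.25, adjusted p = 0.122) and Ppox (0.90 ± 0.34, 0.107) did not pass. Their arrays did not overlap, as in 30.5% of all genes. The porphyrin transporter Abcb6 (1.34 ± 0.29) and the biliverdin reductase Blvrb, which acts in heme breakdown (3.5 ± 0.24), rose. Tmem14c, a mitochondrial porphyrin carrier, did not pass (1.00 ± 0.35, adjusted p = 0.0825). The heme exporter Flvcr1 passed (0.96 ± 0.26), but without preCFUE replicate 1, preCFUE replicate 3 or preGM replicate 3 its adjusted p was 0.0571 to 0.0881.

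Of 13 iron genes, 6 rose, 1 fell and 6 did not pass (53.8% past the test against 14.1% of all genes, median 1.31). Tfrc, the transferrin receptor, was at 1339.9, 1008 and 827 in preCFUE and 474, 342 and 223 in preGM (1.6 ± 0.29, adjusted p = 0.00153 by limma). Tfr2, its relative in the erythropoietin receptor complex, was at 1984, 2587 and 2424 against 573, 562 and 798 (1.84 ± 0.17). The endosomal iron transporter Slc11a2 (1.81 ± 0.15), the ferrireductase Steap3 (1.5 ± 0.31) and the mitochondrial glutaredoxin Glrx5, needed for iron-sulfur clusters (1.71 ± 0.25), rose. Slc40a1, which encodes the iron exporter ferroportin, rose most, from 62.5 ± 15.4 to 835 ± 36.3 (3.46 ± 0.18). Ncoa4, which brings ferritin to lysosomes, was at 279, 159 and 238 in preCFUE against 802, 796 and 659 in preGM and fell (-1.70 ± 0.32, adjusted p = 0.00201). The ferritin heavy chain Fth1 (0.35 ± 0.16, adjusted p = 0.222) and the iron chaperone Pcbp1 (0.24 ± 0.20, 0.623) did not pass. In preMegE, Tfrc averaged 303 ± 41.0, within the preGM range, and Tfr2 1769.6 ± 322.

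**Figure D4:**
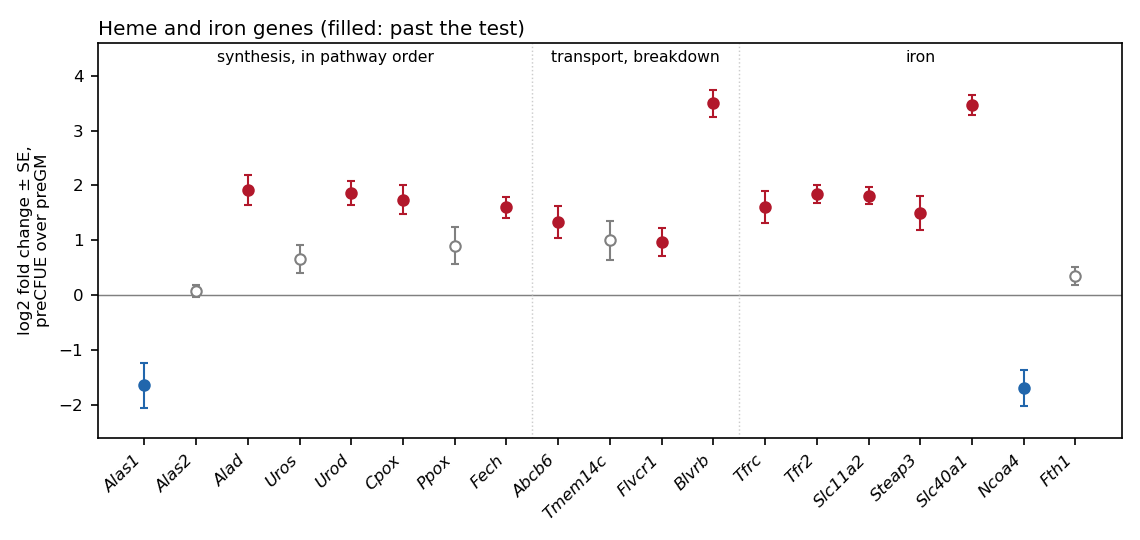
Log2 fold change of preCFUE over preGM ± SE (y axis) for 19 genes: 8 of heme synthesis in pathway order, 4 of porphyrin and heme transport or breakdown, and 7 of iron handling. Filled red points rose, filled blue points fell and open points did not pass the test (3 arrays against 3). Alas2 lies at 0.068, Alas1 and Ncoa4 lie below 0, and Blvrb and Slc40a1 are highest.

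The erythropoietin receptor rose, and the list of its pathway moved both ways. Epor was at 270.4, 220.3 and 201 in preCFUE and 27.7, 38.8 and 24.6 in preGM (2.41 ± 0.22, adjusted p = 1.67e-06 by limma). Of the 14 genes of this list, 2 rose, 5 fell and 7 did not pass (50% past the test, median 0.0044). Jak2, the kinase bound to the receptor, was the other that passed upward (0.43 ± 0.12), a call lost without preCFUE replicate 2, preCFUE replicate 3 or preGM replicate 3 (adjusted p 0.0597 to 0.0959). The transcription factors Stat5a (0.42 ± 0.19) and Stat5b (0.18 ± 0.17) did not pass. The kinase Pim1 was at 83.8, 92.4 and 141 in preCFUE and 544, 550.1 and 677 in preGM (-2.34 ± 0.19). The feedback inhibitors Socs3 (-1.80 ± 0.24) and Sh2b3 (-1.37 ± 0.27) and the adaptor Gab2 (-1.5 ± 0.23) fell with it. The inhibitor Cish passed (-0.43 ± 0.12), but not without preCFUE replicate 1 or 3 or preGM replicate 1 or 3 (adjusted p 0.0676 to 0.148). In CLP, Epor averaged 26.9 ± 4.43 (SD, n = 3). There the means of Pim1 (753 ± 156), Socs3 (96.3 ± 32.1), Sh2b3 (334 ± 161) and Cish (172 ± 10.9) were above those of preGM. That of Gab2 (143 ± 32.8) was below. Signalling through the erythropoietin receptor was not tested.

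Of 20 other cytokine receptors 9 fell, 0 rose and 11 did not pass (45% past the test, median -0.63). The shared interleukin 6 chain Il6st was at 10.8, 17.2 and 14.6 in preCFUE and 109, 159 and 356 in preGM (-2.74 ± 0.38, adjusted p = 0.000131 by limma). The tumour necrosis factor receptors Tnfrsf1a (-1.83 ± 0.18) and Tnfrsf1b (-1.54 ± 0.24) and the interleukin 1 receptor Il1r1 (-1.78 ± 0.26) fell as well. Il17ra, at 244, 221 and 282 against 358, 267 and 299, did not pass and the fractions overlapped.

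Granule proteins had the lowest median of the 23 lists. Of 18 measured, 16 fell, 0 rose and 2 did not pass (88.9% past the test, median -2.35). Besides Mpo, Ctsg and Prtn3, the elastase inhibitor Serpinb1a was at 13.1, 10.7 and 21.7 in preCFUE and 1744, 1276 and 705 in preGM (-5.26 ± 0.47, adjusted p = 1.64e-06 by limma). Elane, neutrophil elastase, was at 18.0, 19.7 and 34.0 against 81.5, 168 and 198 (-2.0 ± 0.26). The lysozymes Lyz1 (-4.59 ± 0.29) and Lyz2 (-2.84 ± 0.33), the transferase Mgst1 (-3.94 ± 0.35) and Ctsc, which activates the granule proteases (-1.29 ± 0.23), fell too. Calr, the chaperone of Mpo, fell by less (-0.69 ± 0.20, adjusted p = 0.0294), and its adjusted p was 0.0588 to 0.142 without preCFUE replicate 1 or without any 1 of the preGM arrays. Srgn, the granule proteoglycan, did not pass (-0.49 ± 0.22, adjusted p = 0.197).

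Markers of later neutrophils moved between preGM arrays. The summed intensity of 9 secondary granule genes was 662 in preGM replicate 1, 1825 in replicate 2 and 260.4 in replicate 3, against 258 to 472 in preCFUE and 133 to 1792 in preMegE. None of the 9 passed the test. Ngp was at 233, 653 and 111 in preGM and 109.7, 97.4 and 178 in preCFUE, and S100a8 at 126, 432 and 18.8 and 49.0, 31.4 and 94.3, so that replicate 2 was high and replicate 3 was within or below the preCFUE range. Of the 16 granule genes that fell, 12 were lowest within preGM in replicate 3, where the neutrophil sum was also lowest. The other 4, Mpo, Elane, Gstm1 and Calr, were highest there. Replicate 3 was also the preGM array least like the others over all genes, and the share of all genes lowest in it was not counted. Cebpd, at 54.0, 107 and 23.0 in preGM and 16.5, 11.4 and 14.1 in preCFUE (-1.21 ± 0.27, adjusted p = 0.00628 by limma), moved with the neutrophil genes. Its adjusted p was 0.128 in a fit of only the 6 arrays, and the part of later neutrophils in its fall and in those of the 12 granule genes was not tested.

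Of 24 surface and signalling genes of granulocytes and monocytes, 17 fell, 1 rose and 6 did not pass (75% past the test, median -1.79). Csf1r, the receptor for macrophage colony-stimulating factor, was at 44.4, 40 and 29.8 in preCFUE and 1516, 1552 and 1990.3 in preGM (-4.98 ± 0.29, adjusted p = 1.86e-08 by limma). Csf3r, the receptor for the granulocyte factor, was at 12.6, 16 and 15.7 against 76.9, 104 and 159.9 (-2.03 ± 0.20), and the common beta chain Csf2rb at 16.6, 18.7 and 15.1 against 294, 409 and 332 (-3.45 ± 0.15). In all 3 receptors the fractions were far apart. Emb (-5.33 ± 0.27), the tetraspanin Cd53 (-4.83 ± 0.24), Alox5ap, needed for leukotriene synthesis (-4.48 ± 0.34), the adaptor Tyrobp (-3.59 ± 0.16) and the interleukin 6 receptor Il6ra (-3.34 ± 0.27) fell. The interferon gamma receptor Ifngr1 rose, from 224 ± 33.9 to 556 ± 104 (1.25 ± 0.19). Itgb2 did not pass (adjusted p = 0.403). Of the NADPH oxidase, 4 of 5 subunits fell: Ncf1 (-4.51 ± 0.32), Ncf4 (-3.05 ± 0.18), Rac2 (-1.65 ± 0.18) and the catalytic Cybb (-1.06 ± 0.19), while Cyba was at 210.3, 145 and 223 in preCFUE and 148, 153 and 78.8 in preGM and did not pass (adjusted p = 0.25).

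Genes of stem and multipotent cells were also far lower in preCFUE. Of 22 measured, 15 fell, 1 rose and 6 did not pass (72.7% past the test, median -2.28). After Cd34, the chromatin organizer Satb1 was at 19.1, 12.2 and 25.1 in preCFUE and 1369, 1384 and 1097 in preGM (-5.23 ± 0.24, adjusted p = 1.74e-09 by limma). Flt3, a receptor of lymphoid and myeloid progenitors, was at 51.2, 51.4 and 36.9 against 1032, 1126 and 1112 (-4.15 ± 0.18). The stem cell transcription factors Erg (-3.86 ± 0.25), Sox4 (-3.44 ± 0.31), Meis1 (-3.35 ± 0.41), Hlf (-3.08 ± 0.11), Mycn (-2.51 ± 0.30) and Mecom (-2.27 ± 0.15) and the growth factor Angpt1 (-2.90 ± 0.44) fell. Part of the list was high in preMegE. Mycn averaged 557 ± 229 there, Meis1 596 ± 174, Angpt1 829 ± 274 and Sox4 1012 ± 346, while Flt3 (49.9 ± 12.2), Hlf (32.1 ± 5.00) and Mecom (20.1 ± 4.59) were low. Mllt3 was the one that passed upward (1.29 ± 0.31), with an adjusted p of 0.0517 without preCFUE replicate 1 and 0.0515 without preGM replicate 3.

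Lymphoid progenitor markers were higher in preGM. Their summed intensity over 16 genes was 3982 to 4737 in preGM and 278 to 305 in preCFUE. Of the 16, 8 fell, 0 rose and 8 did not pass (50% past the test against 14.1% of all genes, median -0.46). Dntt was at 12.6, 19.9 and 19.3 in preCFUE and 2098, 2332 and 1168 in preGM, the immunoglobulin chain Ighm at 15.5, 19.5 and 19.5 against 786, 969.8 and 956 (-4.75 ± 0.85, adjusted p = 0.0012 by limma), and Notch1 at 56.9, 47.7 and 41.3 against 837, 973 and 1493 (-4.07 ± 0.23). Without preGM replicate 1, 5 of the 16 fell. Il7r, which defines the lymphoid gate of the study, was at 79.4, 86.7 and 15.5 in preGM, against 9.51, 9.76 and 10.4 in preCFUE. preGM replicate 3 lay near the preCFUE arrays, and the call (-1.39 ± 0.33) was lost without replicate 1 or 2 (adjusted p 0.052 to 0.0552). The part of lymphoid-primed cells in these falls was not tested.

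The megakaryocyte list did not move one way. Of 20 genes, 2 rose, 8 fell and 10 did not pass (50% past the test, median 0.0097). Vwf, the von Willebrand factor, was at 49.2, 41.9 and 60.6 in preCFUE and 14.4, 10.5 and 11.8 in preGM (1.23 ± 0.24, adjusted p = 0.0021 by limma), and the platelet glycoprotein Gp5 at 158, 81.8 and 98.3 against 24.2, 20.0 and 22.3 (1.71 ± 0.30). The 8 that fell included Plek (-4.77 ± 0.36), Selp (-2.61 ± 0.094), Mef2c (-2.47 ± 0.22), Fli1 (-1.97 ± 0.33) and the integrin Itgb3 (-1.26 ± 0.17). In MkP, Plek averaged 2443 ± 616, Selp 212 ± 24.5, Mef2c 1662 ± 311, Fli1 608 ± 180 and Itgb3 771 ± 119 (SD, n = 3). Each of these means was above that of preGM, and the cause of the falls was not tested. Pf4, platelet factor 4, was at 37.0, 30.9 and 43.7 against 34.6, 26.4 and 25.7 and did not pass, with overlap.

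**Figure D5:**
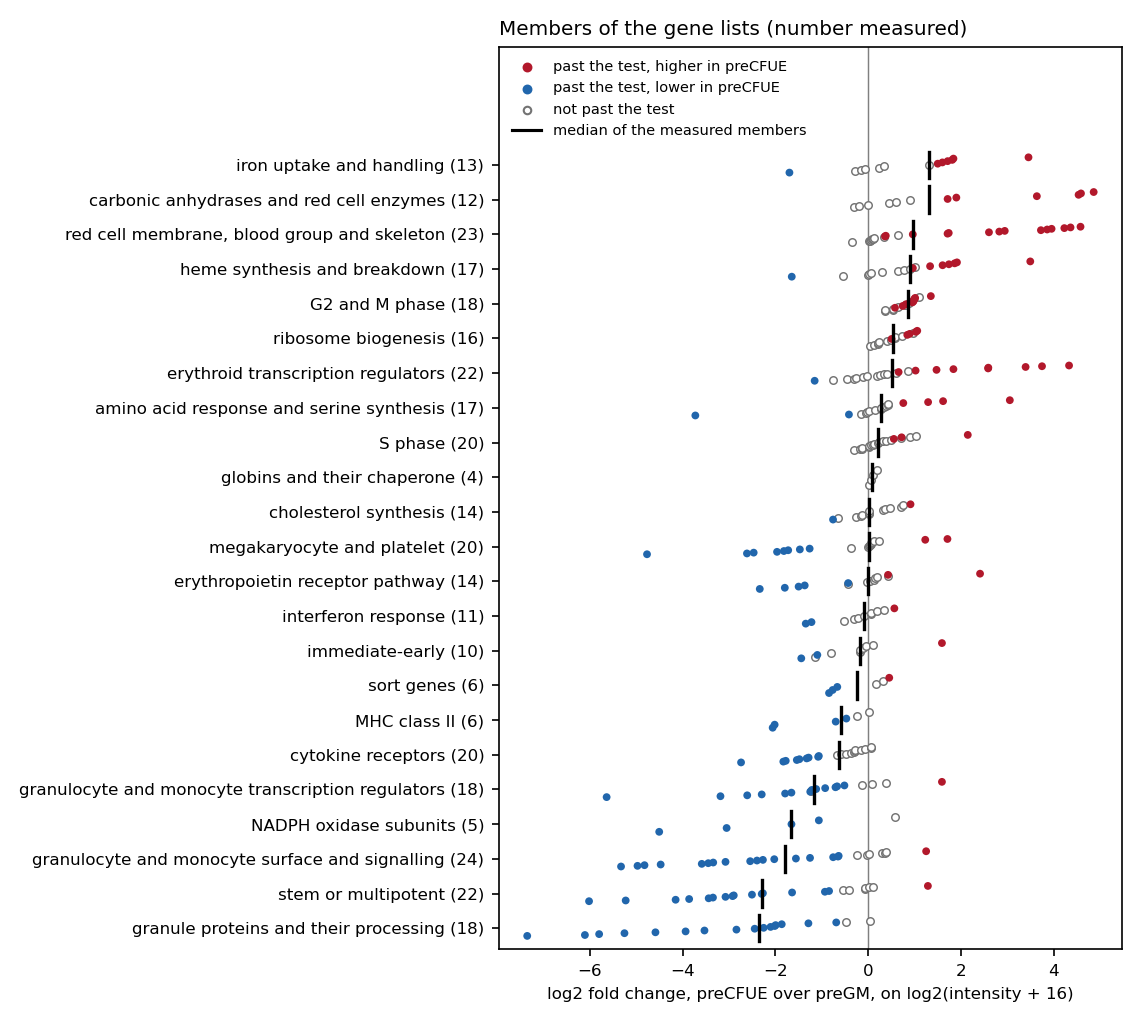
Log2 fold change of preCFUE over preGM (x axis, log2(intensity + 16) scale, 3 arrays against 3) for the measured members of 23 gene lists, 1 point per gene, ordered by list median (black bar). Red points rose, blue points fell and open points did not pass the test. The granule, stem and granulocyte and monocyte surface lists have the lowest medians (-2.35, -2.28 and -1.79), and the iron and red cell enzyme lists the highest (both 1.31).

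Among cell division genes, those of the G2 and M phases were somewhat higher in preCFUE. Of 18 genes of the G2 and M phases, 10 rose, 0 fell and 8 did not pass (55.6% past the test, median 0.85). The ubiquitin-conjugating enzyme Ube2c was at 311, 288 and 351 in preCFUE and 107, 125 and 110.5 in preGM (1.35 ± 0.20, adjusted p = 0.00029 by limma), and the cyclin Ccna2 at 952, 1002 and 874 against 523, 493 and 373 (1.01 ± 0.17). For both, every preCFUE array was above every preGM array. Cdk1 (1.00 ± 0.29) and Aurkb (0.99 ± 0.28), kinases of mitosis, passed with all arrays, but without preCFUE replicate 1, preCFUE replicate 2 or preGM replicate 3 their adjusted p-values were 0.072 to 0.148. Aurkb was also lost without preCFUE replicate 3 (0.0664) or preGM replicate 2 (0.0511). Without preCFUE replicate 1, 6 of the 18 rose, without preCFUE replicate 2, 4, and without preGM replicate 3, 6. Mki67 did not pass (0.79 ± 0.27, adjusted p = 0.0767). For S phase, 3 genes of 20 rose and the other 17 missed the threshold (15% past the test against 14.1% of all genes, median 0.22). Cyclin E1, from Ccne1, was at 837, 597 and 969 against 167, 192 and 139 (2.15 ± 0.26) and the nuclease Fen1 at 5178, 5796 and 4729.6 against 2756, 3221 and 3549 (0.72 ± 0.10). Rrm2 also rose (0.55 ± 0.17, adjusted p = 0.0376 by limma). That call was lost without preCFUE replicate 2 or 3 or preGM replicate 1 or 2 (0.0989 to 0.15). Mcm7 did not pass (adjusted p = 0.911).

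Of 16 ribosome biogenesis genes, 5 rose and 11 did not pass (31.25% past the test against 14.1% of all genes, median 0.54). Nolc1, a nucleolar phosphoprotein, was at 888, 716 and 611 in preCFUE and 334, 346 and 346 in preGM (1.06 ± 0.19, adjusted p = 0.0015 by limma), which was lost with the mean over its probe sets (0.357), and Rrp9, which acts in ribosomal RNA processing, at 339.9, 201 and 275 against 139, 128 and 103 (1.03 ± 0.16). Bop1 and Polr1b also passed, but not without any 1 of the 6 arrays (adjusted p 0.054 to 0.156), and leaving out any 1 array left 3 that rose. Npm1 was at 5428 ± 217 and 5018 ± 489 and did not pass (adjusted p = 0.917).

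Of the amino acid list 4 of 17 genes rose, 2 fell and 11 did not pass (35.3% past the test against 14.1% of all genes, median 0.29). Asns, asparagine synthetase, was at 1235, 855 and 967 in preCFUE and 101, 109 and 111 in preGM (3.06 ± 0.23, adjusted p = 2.64e-07 by limma), and averaged 139 ± 30.1 in preMegE, near preGM. The proline synthesis enzyme Aldh18a1 (1.62 ± 0.21) and the amino acid transporter Slc7a5 (1.29 ± 0.25) rose. Vldlr, a lipoprotein receptor in that list, was at 6.69, 10.1 and 7.55 against 238, 292 and 398 and fell (-3.73 ± 0.16). Phgdh, the first enzyme of serine synthesis, passed downward (-0.42 ± 0.13, adjusted p = 0.0473), but not without any 1 of the preCFUE arrays or without preGM replicate 1 or 2 (0.0849 to 0.167). Of 14 cholesterol genes 12 did not pass (14.3% past the test, median 0.022), Lss rose (0.91 ± 0.14) and Hmgcs1 fell (-0.76 ± 0.16). Mt1, the metallothionein next to Mt2 in the genome, was at 1521, 2052 and 2145 in preCFUE and 97.3, 106 and 112 in preGM (3.98 ± 0.16) and averaged 521 ± 57.3 in preMegE.

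Of 6 MHC class II genes, 4 fell, 0 rose and 2 did not pass (66.7% past the test, median -0.59). H2-Aa was at 32.1, 27.0 and 35.1 in preCFUE and 206, 222 and 117 in preGM (-2.02 ± 0.27, adjusted p = 7.76e-05 by limma) and H2-DMa at 117, 79.2 and 129.8 against 542, 508 and 442 (-2.06 ± 0.23). H2-Eb1 fell (-0.70 ± 0.15), and Cd74, dim in both, passed (-0.47 ± 0.13) but not without preCFUE replicate 1 or 2 or preGM replicate 2 or 3 (adjusted p 0.0595 to 0.112). H2-Ab1 (-0.25 ± 0.29) and the class II activator Ciita did not pass, Ciita being at 9.96, 17.6 and 11.7 against 10.4, 13.3 and 14.4. Of 11 interferon response genes, 8 did not pass (27.3% past the test against 14.1% of all genes, median -0.083). Gbp2 (-1.22 ± 0.15) and Oasl2 (-1.35 ± 0.24) fell, and Irf7 passed upward (0.56 ± 0.17), with adjusted p 0.0813 to 0.128 without preCFUE replicate 1, preCFUE replicate 3 or preGM replicate 3. Of 10 immediate-early genes, Egr1 rose, Ier3 fell (-1.44 ± 0.24), Dusp1 fell (-1.10 ± 0.27, but adjusted p 0.0508 without preGM replicate 1) and 7 did not pass. The share of this list past the test was 30%, with a median of -0.18.

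In the macrophage (10 genes), eosinophil (5) and dendritic cell (7) lists no gene passed, and their sums in preCFUE and preGM ran from 44.4 to 188. The mast cell and basophil list summed to 146 to 158 in preCFUE and 320 to 414 in preGM. In it 2 of 8 fell, Cpa3 (-2.01 ± 0.17, adjusted p = 1.11e-06 by limma) and Mcpt8 (-1.79 ± 0.18), and 6 did not pass (25% past the test, median -0.12). Cpa3 averaged 25.9 ± 3.23 in preCFUE and 153 ± 19.4 in preGM, and Mcpt8 17.9 ± 1.26 and 104 ± 33.4 (SD, n = 3). The T and NK cell list summed to 172 to 201 in preCFUE and 385 to 515 in preGM. Only Nkg7 fell (-2.57 ± 0.25), at 44.7, 41.7 and 31.9 in preCFUE and 390, 335 and 228 in preGM. The other 7 genes of this list did not pass (12.5% past the test against 14.1% of all genes, median 0.026). The B and plasma cell list summed to 557 to 793 in preCFUE and 1237, 1251 and 773 in the 3 preGM arrays. Of its 6 genes only Sdc1 fell (-1.15 ± 0.24) and 5 did not pass (16.7% past the test, median -0.023). Most of that sum was Xbp1, at 675, 510 and 742 in preCFUE and 1165, 1158 and 708 in preGM, which did not pass (-0.62, adjusted p = 0.401 by limma). The endothelium and stroma list summed to 137 to 170.5 in preCFUE and 108 to 121 in preGM. Only Col1a2 rose (0.93 ± 0.15), at 50.9 ± 8.41 in preCFUE and 19.0 ± 0.75 in preGM (SD, n = 3). The other 7 genes of that list did not pass (12.5% past the test, median 0.029). Cpa3 averaged 170.1 ± 36.4 and Nkg7 458 ± 71.1 in preMegE.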

How the data were processed

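RNA of fractions sorted into lysis buffer was amplified in more than 1 round and hybridised to Affymetrix mouse arrays, per the labels' protocols and the design text. The table that the authors deposited gives a linear RMA intensity for each probe set on each array. The authors used RMA, per the design text and the submitters' processing notes, and its version is not given in the sources used here. Array scaling to a common median, which the design text also names, was not visible in the deposited medians. The ratio of SD to mean filter that the design text gives was not applied before deposition, since all 45101 probe sets are present, and was tried as an alternative.

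Names came from the platform's annotation of probe sets (34958 with 1 gene symbol, 932 with several, which were not named, and 9160 others not listed). The brightest probe set by mean over the 17 arrays stood for a gene, which left 18193 genes. Of these, 6023 had a mean under 16. Intensities are given as deposited and mean ± SD where averaged. log2(intensity + 16) was fitted with 1 term per fraction over all 17 arrays with limma 3.58.1 (lmFit, eBayes) under R 4.3.3 and data.table (version 1.17.8), with 12 residual and 2.01 prior degrees of freedom. Plots were drawn with matplotlib 3.10.9 and pandas 2.3.3 under Python 3.11.15. The fit was tested on simulated data.

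The comparison, the 23 gene lists and the 9 marker lists were chosen with earlier results of these data known. Lists are described by counts and medians without a test of the list. Named genes were the sort genes and the 12 largest rises and falls without overlap between arrays. From each of the other gene lists came the 4 largest changes and the 1 brightest gene that did not pass. Gene lists of 8 genes or fewer were named in full, and each marker list gave up to 2 changed genes. A further 68 of the 197 named genes were chosen after their values were seen. Gpx1, Xbp1 and Gstm1 are mentioned above but are not among the 197, and the checks of named genes do not cover them. Of the 155 named genes that passed, 94 had several probe sets, and 0 had one that passed in the opposite direction. In that fit of all probe sets, many did not pass for some genes. Bcl11a had 1 of 7 that passed, Ighm 2 of 11, Cd93 2 of 5 and Trib2 1 of 3. Rrm2 (0 of 3), Bop1 (0 of 2), Polr1b (0 of 1) and Phgdh (0 of 4) passed as reported but had no probe set that passed in that fit. Other genes, such as Mef2c (5 of 5) and Tspan33 (4 of 4), passed with all. Same-numbered arrays of the 2 fractions deviated together at correlations of 0.48, -0.41 and 0.094, so the numbers were not taken to pair them. The 19 alternatives changed the constant added, the filter, the probe set rule, the normalization, the arrays fitted, array weights, the Gapdh covariate, the replicate block or left out 1 array.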

Additional observations from a re-analysis of the deposited data

Results flagged for a closer look

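Klf1 in preMegE replicate 3 had an intensity of 3200, apart from the other 4 preMegE arrays, which lay between 1722 and 2129. Its gap to the nearest array exceeded the critical value of 0.71 times the range of the group. No preMegE mean was tested here, but the preMegE arrays entered the fit and its estimate of spread. The 12 largest rises and 12 largest falls were all checked for such a gap, which chance gives in about 1 in 20 groups.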

How the results depend on the processing

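Against 2560 changed genes as reported, the SD over mean filter, which kept 2141 genes for the test, gave 1390 (534 higher and 856 lower in preCFUE), of which 1219 were among the 2560. Array weights gave 4958 (2351 higher, 2607 lower), of which 2551 were. Changes of at least 2-fold, 1326 in all, numbered 832 with 64 added before the logarithm and 861 with the mean over probe sets. Leaving out 1 of the 6 arrays gave 1979 to 2230 changed genes, 1251 to 1352 of at least 2-fold, 738 to 946 higher and 1207 to 1431 lower. A replicate block in a fit of the 6 arrays gave 1876 changed genes (705 higher, 1171 lower), against 2463 in that fit without the block, and 3 of the 6 arrays correlated best with their own number. preGM replicates 1 and 2 averaged as 1 array, an alternative chosen after seeing the data, gave 2141. Quantile normalization gave 1330 higher and 1452 lower, and median centring 1399 and 1306. Of the 155 changed genes named, the fold moved by over 1.5 times for 50 with 1 added, 76 with 64 added and 54 with the mean over probe sets. Differences that had not passed changed sign for Mcm7 (quantile normalization, -0.031), Cd24a (array weights, -0.034), Gata2 (array weights, 0.12; -0.33 to 0.082 without 1 array), Ciita (Gapdh covariate, -0.0047; preGM averaged, -0.010; -0.097 to 0.088 without 1 array), Hbb-y (-0.0053 to 0.062 without 1 array) and Treml1 (-0.019 to 0.16 without 1 array). None of the 155 named genes that had passed changed sign under these alternatives. The cause of these shifts was not tested. The number of arrays and the dim end of the intensities limit the precision.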
